A study of Homo sapiens with 12 samples.

Results

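The genes described here are 10 lipases and regulators of lipolysis in cultured human adipocytes, chosen by name from the count table: PNPLA2, PNPLA3, LIPE, MGLL, ABHD5, G0S2, CES1, LPL, LIPA and LIPG. They are 10 of 28901 named genes, and all 10 had the minimum of 10 counts needed to be tested in each comparison. Lipolysis releases fatty acids and glycerol from the triglyceride of the lipid droplet. In the adipocyte it runs as a cascade, in which adipose triglyceride lipase (PNPLA2) removes the first fatty acid, hormone-sensitive lipase (LIPE) cleaves the diacylglycerol and monoglyceride lipase (MGLL) completes the step to glycerol. ABHD5 activates PNPLA2 and G0S2 inhibits it, while catecholamines raise the flux through cAMP and protein kinase A and insulin lowers it. CES1 and LIPA hydrolyse stored esters outside this cascade, the first in the endoplasmic reticulum and the second in the lysosome. LPL and LIPG are secreted and act on lipoproteins at the vessel wall.

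The adipocytes had been differentiated for 14 days from ASC52telo hTERT, 1 line of human adipose stromal cells immortalized with telomerase and labelled wild type, and were measured by RNA-seq. The cells carried a lentiviral scramble shRNA (scramble control) or an shRNA against the long intergenic RNA linc-ADAIN (linc-ADAIN KD), and cells positive for the green reporter of the vector had been sorted. The paper lists 1 hairpin sequence for each. Effects of the hairpin or of the sorted cells can therefore not be told apart from those of KD. All groups received insulin and dexamethasone for the whole period and isobutylmethylxanthine and rosiglitazone in its first week, and cells of each shRNA were left untreated or were given LPS, a bacterial endotoxin, at 100 ng/mL for 4 h. Each of these 4 groups had 3 libraries. The question was how linc-ADAIN KD and LPS changed adipocyte genes. Triplicates were taken within 1 experiment, so p-values measure the spread between these libraries. Levels are given as CPM, counts per 1000000 after edgeR's TMM scaling, SE is the standard error, and fold changes come from edgeR's quasi-likelihood test with Benjamini-Hochberg adjustment over all genes tested.

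The libraries held 28.4 to 53.8 M counts (in units of 1000000), and linc-ADAIN, the targeted RNA, was not analysed here, so that the KD labels are not checked on their target and KD stands for the libraries labelled so. All 9 LPS response genes that were checked, such as CXCL8 and SOD2, rose with LPS under either shRNA. The adipocyte markers ADIPOQ and FABP4 had means of 919.9 and 1982 CPM in scramble control, whereas LEP and SLC2A4 had at most 21 and 22 counts in any of the 12 libraries. The summed level of 12 adipocyte markers other than LIPE and LPL was 3363, 3808 and 4671 CPM in the scramble libraries and 3920.4, 4554 and 4193 CPM in the scramble libraries with LPS. In linc-ADAIN KD it was 1989.9, 1511 and 672 CPM without LPS and 1274, 866 and 547 CPM with LPS, and the libraries numbered 3 were the lowest of both KD groups. Of 14 adipocyte markers, LIPE and LPL included, 10 fell with KD without LPS and 11 with LPS, and none rose. The sum for 11 stromal markers measured was higher in KD, from 7245 to 8940.4 CPM in scramble control to 10381 to 11940.5 CPM in linc-ADAIN KD, and from 7099 to 8226 to 11612 to 13187 CPM with LPS. Its markers did not move together: 5 rose and 3 fell of 10 tested with KD, in either LPS state. Without LPS, DCN had means of 2673 and 4908 CPM, whereas THY1 had 764 and 148, ENG 285 and 111 and PDGFRB 978 and 523 CPM. Of 8 macrophage markers, PTPRC, LYZ, MRC1 and ADGRE1 were at most 1.02 CPM, and the sum went from 58.3 to 62.0 to 90.2 to 119 CPM with KD. CD163 had means of 4.33 and 68.6 CPM, and CD68 went the other way, with 53.7 and 31.2 CPM without LPS and 60.3 and 25.3 CPM with LPS. Of 7 macrophage markers tested, 1 rose and 1 fell without LPS and 2 rose and 1 fell with LPS. With LPS the macrophage sum was 61.3 to 72.7 CPM in scramble control and 82.2 to 110.1 CPM in KD. The endothelial sum was 23.6 to 27.1 CPM in scramble control and 11.7 to 12.4 CPM in linc-ADAIN KD. With LPS it was 15.4 to 17.0 and 8.38 to 13.1 CPM, with CDH5 near 0. Of 4 endothelial markers tested, 0 rose and 2 fell with KD without LPS, and 1 rose and 3 fell with LPS. KDR had means of 0.0840 and 0.683 CPM without LPS and 0.108 and 3.11 CPM with LPS, higher in KD. The lymphocyte sum was at most 0.175 CPM. The part of these marker shifts in the results below was not tested, and in bulk RNA fewer cells of a type and less RNA per cell cannot be told apart.

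The promoters of PNPLA2 and LIPE, 2 of the genes that fell with linc-ADAIN KD, and of ABHD5 and G0S2, the co-activator and the inhibitor, which moved in opposite directions with LPS, are shown first. The RefSeq table (GRCh38.p14) held a promoter, 250 bases before to 50 after a start site, for 6 of the 10 genes, and CES1, MGLL, LPL and PNPLA3 were not matched. Each window is written 5′ to 3′ on the strand of its gene, with matches to the searched motifs in capitals.
PNPLA2, chr11:818664-818963, plus strand: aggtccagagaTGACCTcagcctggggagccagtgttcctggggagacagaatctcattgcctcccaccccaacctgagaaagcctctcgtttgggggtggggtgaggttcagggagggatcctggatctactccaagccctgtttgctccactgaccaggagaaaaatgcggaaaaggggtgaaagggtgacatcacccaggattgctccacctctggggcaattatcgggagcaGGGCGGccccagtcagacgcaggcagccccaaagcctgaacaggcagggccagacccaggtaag
LIPE, first start site, chr19:42427339-42427638, minus strand: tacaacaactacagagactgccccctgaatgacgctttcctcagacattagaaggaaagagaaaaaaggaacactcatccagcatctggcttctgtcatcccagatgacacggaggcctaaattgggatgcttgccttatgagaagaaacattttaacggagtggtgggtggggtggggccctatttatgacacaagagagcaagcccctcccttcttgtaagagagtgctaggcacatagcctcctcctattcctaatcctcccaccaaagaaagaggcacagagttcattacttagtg
LIPE, second start site, chr19:42423536-42423835, minus strand: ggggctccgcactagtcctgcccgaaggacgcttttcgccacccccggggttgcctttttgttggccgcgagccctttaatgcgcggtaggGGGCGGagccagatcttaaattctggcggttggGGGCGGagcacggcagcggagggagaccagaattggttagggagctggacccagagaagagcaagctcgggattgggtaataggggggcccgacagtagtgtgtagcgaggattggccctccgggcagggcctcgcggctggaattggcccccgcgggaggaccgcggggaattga
ABHD5, chr3:43690688-43690987, plus strand: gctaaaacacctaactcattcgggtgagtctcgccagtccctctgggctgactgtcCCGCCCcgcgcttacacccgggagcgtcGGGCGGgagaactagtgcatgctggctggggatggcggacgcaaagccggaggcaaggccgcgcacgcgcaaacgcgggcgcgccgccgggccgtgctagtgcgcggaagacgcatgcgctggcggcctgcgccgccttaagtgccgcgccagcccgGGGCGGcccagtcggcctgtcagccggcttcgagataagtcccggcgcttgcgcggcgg
G0S2, chr1:209675162-209675461, plus strand: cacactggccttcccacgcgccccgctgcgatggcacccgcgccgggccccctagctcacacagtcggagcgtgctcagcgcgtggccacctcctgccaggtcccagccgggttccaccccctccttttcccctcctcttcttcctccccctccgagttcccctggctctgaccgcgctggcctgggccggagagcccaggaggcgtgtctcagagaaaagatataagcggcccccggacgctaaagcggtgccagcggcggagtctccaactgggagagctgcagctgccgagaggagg

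The capitals in the PNPLA2 window mark 1 nuclear receptor site (AGGTCA, on the minus strand) 239 to 234 bases before the start and 1 GC box (GGGCGG) 14 to 9 bases before it. The second LIPE window and the ABHD5 window of the reference start site hold 2 and 3 GC boxes. Other ABHD5 windows, not shown, begin at 43690620 and 43690848 and hold 2 GC boxes each. The first LIPE window and the G0S2 window hold none of the motifs. On either strand, 13.8% of 35116 promoters of the same length held the nuclear receptor site and 45% held a GC box. The other letters searched were the C/EBP palindrome TTGCGCAA (0.151% of promoters), its core TTGCNNAA (10.5%), the E-box CACGTG (7.26%), TATAAA (11.5%), and by name the DR1 repeat of that site (0.0228%) and NF-kB (11.3%). In the windows of the 2 remaining matched genes, LIPA held 2 GC boxes at its reference start site and LIPG held 1 C/EBP core. The palindrome is also counted as a core, and DR1 holds the nuclear receptor site.

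Per kilobase of the reference transcript, G0S2 had the highest level of the 10 genes in scramble control, at 613 ± 107 CPM per kilobase (SD, n = 3). CES1 followed at 192 ± 74.1, PNPLA2 at 135 ± 15.2 and LIPA at 78.9 ± 5.65 CPM per kilobase, and the libraries of CES1 and PNPLA2 overlapped. ABHD5 had 23.3 ± 1.83, LIPE 18.2 ± 2.24 and MGLL 18.2 ± 2.93 CPM per kilobase, and the last 2 of these could not be ordered beyond their spread. LIPG, PNPLA3 and LPL were all under 1 CPM per kilobase, at 0.545 ± 0.120, 0.409 ± 0.0232 and 0.0764 ± 0.0666. In linc-ADAIN KD the order of level per length changed for CES1, which lay among ABHD5 and MGLL at 17.9 ± 1.56 CPM per kilobase, and for PNPLA2, whose 62.3 ± 10.7 CPM per kilobase overlapped the 53.7 ± 2.87 of LIPA. With LPS, the KD libraries had 58.4 ± 2.86 CPM per kilobase for LIPA, 51.3 ± 6.98 for PNPLA2, 22.2 ± 1.65 for CES1 and 4.74 ± 2.03 for LIPE, and the scramble libraries kept G0S2, CES1, PNPLA2 and LIPA as the 4 highest in that order. These levels depend on the transcript chosen for the length, and for LIPE it is the long form of 3768 bases.

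**Figure D1:**
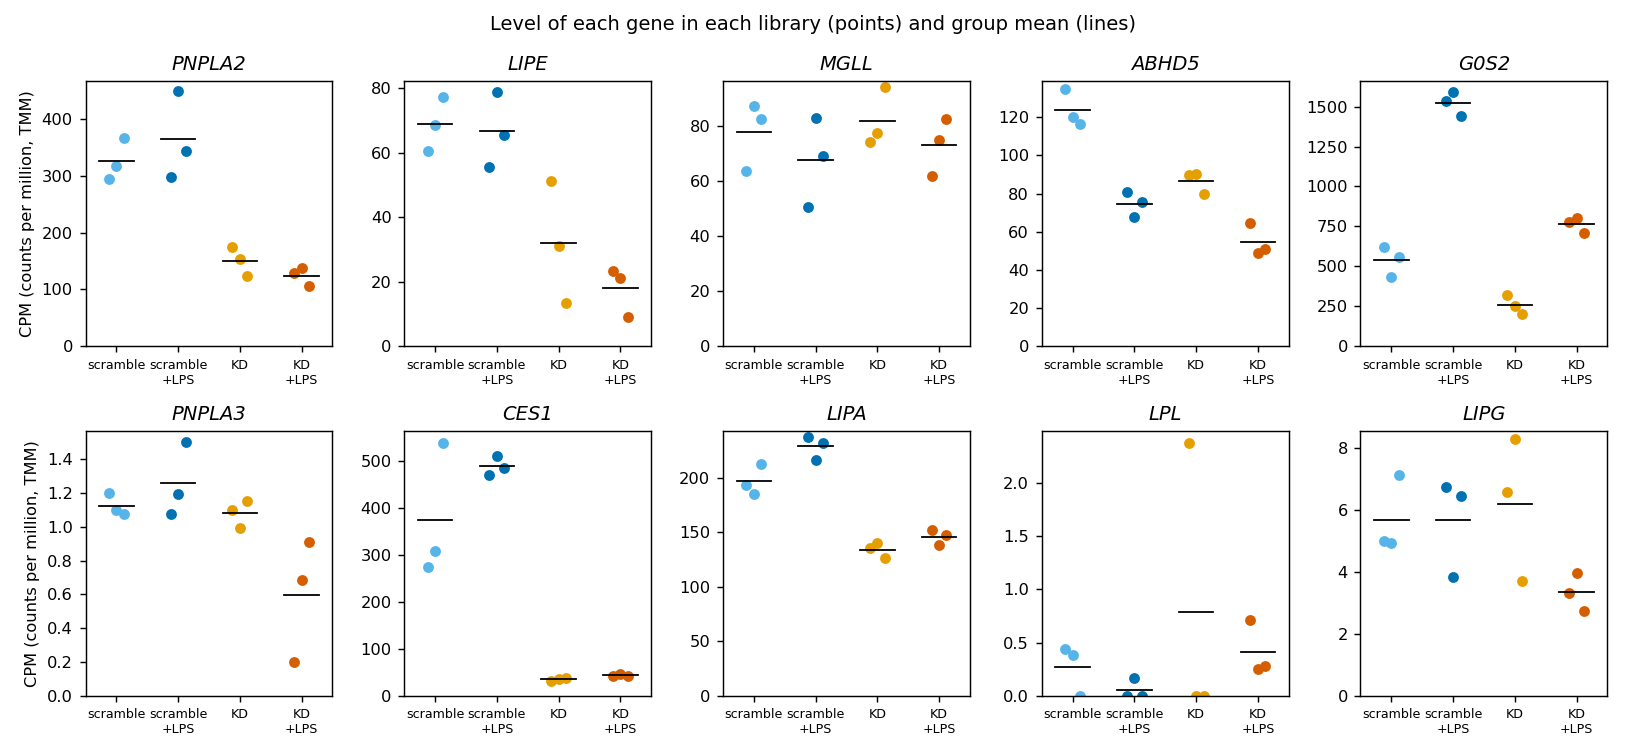
Level of each of the 10 genes in every library, in CPM after TMM scaling on linear axes that start at 0 (points, 3 libraries per group; black lines, group means). PNPLA2, LIPE, G0S2, CES1 and LIPA sit lower in both linc-ADAIN KD groups than in the scramble group of the same LPS state, G0S2 is higher in both LPS groups than without LPS, and MGLL overlaps in all 4.

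Without LPS, linc-ADAIN KD lowered 6 of the 10 genes, namely PNPLA2, LIPE, ABHD5, G0S2, CES1 and LIPA, and raised none. The largest difference was in CES1, 10.7-fold lower, while PNPLA2, LIPE and G0S2 were each about 2-fold lower and MGLL, the last enzyme of the cascade, did not pass the test. Over all genes tested, 15.1% were lower and 12.1% higher by the same rule, and 3.49% were lower by at least 2-fold, which 4 of the 10 genes were. The median log2 fold change was -0.53 over the 10 genes and 0.02 over all genes tested. At an unadjusted p under 0.05, 6 of the 10 passed as well, and DESeq2 called 5. Scaling by library size alone moved the median of all genes by 0.104 on the log2 scale and the share of changed genes that were higher from 44.5% to 61.4%, and the 6 genes fell under that scaling too. The paper reports the opposite direction for PNPLA2 and LIPE, whose mRNA rose with KD by qPCR in adipocytes of this line. It also reports more PNPLA2 protein, more MGLL mRNA, and more stored lipid and triglyceride. For the markers PPARG, FABP4, PLIN1 and ADIPOQ it reports more mRNA and more protein. The mean mRNA levels of these markers were lower with KD here. The reason for the opposite directions was not tested.

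PNPLA2 lies on chromosome 11 from 818914 to 825573 of GRCh38. It was at 294, 318 and 366 CPM in the scramble libraries and at 175, 153 and 124 CPM in the KD libraries without LPS. Every KD library was below every scramble library, and the library numbered 3 was the lowest of the KD group. The level was 2.16-fold lower (log2 fold change -1.11, SE 0.121, adjusted p = 3.2e-05).

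LIPE, which hydrolyses diacylglycerol and is phosphorylated by protein kinase A, lies on chromosome 19 from 42401514 to 42427388. It was at 60.4, 68.6 and 77.2 CPM in the scramble libraries and at 51.2, 31.1 and 13.3 CPM in the KD libraries. The groups did not overlap, but the KD libraries were spread widely, in the same order as the adipocyte marker sum of those libraries. The log2 fold change was -1.11 (SE 0.326, adjusted p = 0.024). It was -0.75 without KD replicate 3 and -1.62 without KD replicate 1. DESeq2 gave an adjusted p of 0.11 for LIPE, and leaving out KD replicate 2, scramble replicate 2 or scramble replicate 3 gave 0.085, 0.06 and 0.082 with edgeR.

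MGLL, on chromosome 3 from 127689062 to 128052190, also ends the signal of the endocannabinoid 2-arachidonoylglycerol. It was at 63.4, 87.1 and 82.3 CPM in the scramble libraries and at 74.1, 77.3 and 94.0 CPM in the KD libraries, and the groups overlapped. The log2 fold change was 0.08, with a 95% interval of -0.20 to 0.36 and an adjusted p of 0.7, so that a 2-fold change in either direction lies outside the interval.

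ABHD5, or CGI-58, is released from perilipin when the cell is stimulated and then binds PNPLA2. Its gene lies on chromosome 3 from 43690108 to 43734371. The levels were 135, 120.0 and 116 CPM in scramble control and 89.9, 90.1 and 79.5 CPM in linc-ADAIN KD, with no overlap. ABHD5 fell by less than PNPLA2 did in the point estimates, with a log2 fold change of -0.51 (SE 0.0842, adjusted p = 0.00072), and the difference between the 2 genes was not tested.

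G0S2, a small inhibitory protein that binds PNPLA2, is encoded on chromosome 1 from 209675412 to 209676390 in 2 exons. It was at 620.0, 435 and 557 CPM in the scramble libraries and at 320.3, 249 and 199 CPM in the KD libraries. All 3 KD libraries lay below the scramble libraries. The log2 fold change of -1.07 (SE 0.160, adjusted p = 0.00038) was close to that of PNPLA2.

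CES1, a carboxylesterase of the endoplasmic reticulum that hydrolyses triglyceride and cholesteryl esters, lies on chromosome 16 from 55802851 to 55833337. It was at 273, 308 and 539 CPM in the scramble libraries, where replicate 3 stood above the other 2, and at 31.7, 34.8 and 37.7 CPM in the KD libraries. The KD libraries agreed closely and were far below every scramble library. The log2 fold change was -3.42 (SE 0.220, adjusted p = 5.3e-07). Reads of CES1 can be shared with the pseudogene CES1P1, whose estimated counts were 1335, 1283 and 1547 in the scramble libraries and 339, 350 and 163 in the KD libraries. With the counts of CES1, CES1P1 and CES1P2 summed, the log2 fold change was -3.26.

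LIPA, the acid lipase that degrades cholesteryl esters and triglyceride in lysosomes, lies on chromosome 10 from 89213569 to 89414557, where genes of the interferon-induced IFIT family overlap it on the opposite strand. Its levels were 193, 185 and 212 CPM in scramble control and 136, 140.0 and 126 CPM in linc-ADAIN KD. The groups were tight and did not overlap, and LIPA was 1.47-fold lower (log2 fold change -0.55, SE 0.0797, adjusted p = 0.00029).

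The remaining 3 genes had few counts. PNPLA3, a relative of PNPLA2 that also sits on the lipid droplet, lies on chromosome 22 from 43923792 to 43964488 and had 63, 58 and 50 counts in the scramble libraries and 38, 53 and 47 in the KD libraries, a log2 fold change of -0.06 (95% interval -0.93 to 0.82) whose sign turned with scaling by library size alone. LIPG, endothelial lipase, on chromosome 18 from 49560699 to 49599185, was at 4.98, 4.94 and 7.13 CPM and 6.57, 8.28 and 3.70 CPM, with overlapping groups and a log2 fold change of 0.13 (95% interval -0.47 to 0.72). Neither passed the test.

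LPL, lipoprotein lipase, is usually abundant in mature adipocytes and releases fatty acids from circulating triglyceride. Its gene lies on chromosome 8 from 19901717 to 19967259. Here it had 23, 20 and 0 counts in the scramble libraries, 0, 5 and 0 with LPS, 82, 0 and 0 in linc-ADAIN KD and 25, 12 and 8 in linc-ADAIN KD with LPS. A count of 0 allows up to 3 counts in a library. The group means were low, from 0.0553 CPM in scramble control with LPS to 0.791 CPM in KD without LPS. In that KD group, 1 library, at 2.37 CPM, held most of the counts. No comparison of LPL passed the test, but KD with LPS did without replicate 2 of scramble with LPS (adjusted p = 0.039).

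With LPS present, linc-ADAIN KD also lowered PNPLA2, LIPE, ABHD5, G0S2, CES1 and LIPA, and none of the 10 rose. Over all genes tested, 14.2% were lower and 12.7% higher, and 3.9% were lower by at least 2-fold, as were PNPLA2, LIPE and CES1. At an unadjusted p under 0.05, 7 of the 10 genes passed, and DESeq2 called 6. The median log2 fold change was -0.88 over the 10 genes and 0.03 over all genes. The 2 comparisons of KD share no library, and each LPS comparison shares 3 libraries with each of them.

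PNPLA2 was at 299, 450.4 and 344 CPM in the scramble libraries with LPS and at 128, 139 and 106 CPM in the KD libraries with LPS, 2.92-fold lower (log2 fold change -1.54, SE 0.137, adjusted p = 1.7e-06). LIPE was at 55.6, 78.7 and 65.4 and 23.3, 21.2 and 9.10 CPM, 3.68-fold lower (log2 fold change -1.88, SE 0.251, adjusted p = 7.4e-05). Neither gene's groups overlapped, and replicate 3 was again the lowest KD library of both. Without that library, the log2 fold change of LIPE was -1.58.

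CES1 was at 469, 511 and 486 CPM and 41.4, 46.8 and 41.2 CPM, a log2 fold change of -3.49 (SE 0.0860, adjusted p = 4e-11), and -3.23 with the pseudogene counts added. LIPA was at 237, 217 and 232 CPM and 152, 138 and 147 CPM, a log2 fold change of -0.64 (SE 0.0763, adjusted p = 2.6e-05). G0S2 was at 1538, 1591 and 1443 CPM and 777, 799.6 and 709 CPM, a log2 fold change of -0.99 (SE 0.0719, adjusted p = 2.3e-07). For these 3 genes every KD library lay below every scramble library.

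ABHD5 had the smallest of these 6 differences, from 80.7, 67.9 and 75.3 CPM to 64.8, 48.6 and 50.7 CPM (log2 fold change -0.44, SE 0.114, adjusted p = 0.011), and its adjusted p was 0.051 without replicate 2 of KD with LPS. MGLL was at 50.6, 82.7 and 68.8 CPM and 61.7, 74.9 and 82.5 CPM, which overlapped, with a log2 fold change of 0.13 (95% interval -0.20 to 0.46). LIPG was at 6.75, 3.85 and 6.46 and 3.31, 3.97 and 2.73 CPM, and its log2 fold change of -0.76 missed the threshold (adjusted p = 0.058, and 0.048 with no filter on low counts). PNPLA3 had 42, 36 and 64 counts in scramble control and 7, 32 and 26 in KD, and a log2 fold change of -1.07 with a 95% interval of -2.41 to 0.27.

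**Figure D2:**
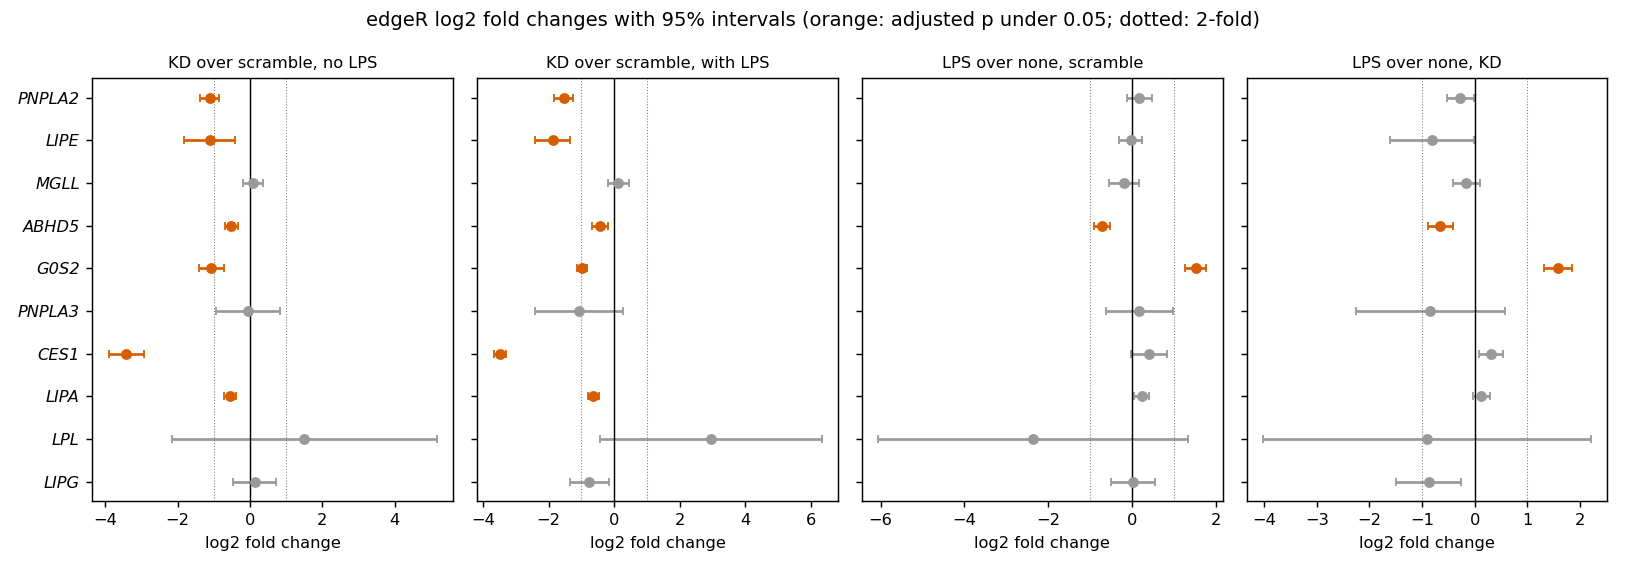
Log2 fold changes from edgeR with 95% intervals for the 10 genes (rows) in 4 comparisons (panels, each with its own axis); orange points passed an adjusted p of 0.05 and dotted lines mark a 2-fold change. The 6 orange points of both KD panels lie below 0, and in both LPS panels only G0S2, above 0, and ABHD5, below 0, are orange.

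With LPS, 2 of the 10 genes passed the test, G0S2 and ABHD5. No lipase passed, although several passed in the alternatives given with them. In scramble control G0S2 rose 2.86-fold and ABHD5 was 1.64-fold lower, and none of the other 8 genes passed. In linc-ADAIN KD these same 2 genes passed, in the same directions. Over all genes tested, 5.9% rose and 8.38% fell with LPS in scramble control, and 5.32% rose and 6.03% fell in linc-ADAIN KD. The count of 1 rise and 1 fall among the 10 genes is near these shares. G0S2 was the gene of the 10 that rose by at least 2-fold, as did 1.4% and 1.3% of all genes. The median log2 fold change of the 10 genes was 0.09 in scramble control and -0.46 in KD, against 0.02 and 0.01 over all genes.

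G0S2 went from 620.0, 435 and 557 CPM to 1538, 1591 and 1443 CPM with LPS in scramble control (log2 fold change 1.51, SE 0.116, adjusted p = 5.9e-06). In linc-ADAIN KD it went from 320.3, 249 and 199 CPM to 777, 799.6 and 709 CPM (log2 fold change 1.58, SE 0.126, adjusted p = 7.3e-07). Every LPS library lay above every library without LPS of the same shRNA, and each KD library with LPS was above each scramble library without it.

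ABHD5 went from 135, 120.0 and 116 CPM to 80.7, 67.9 and 75.3 CPM with LPS in scramble control (log2 fold change -0.72, SE 0.0893, adjusted p = 0.00023). In KD it went from 89.9, 90.1 and 79.5 CPM to 64.8, 48.6 and 50.7 CPM (log2 fold change -0.65, SE 0.109, adjusted p = 0.00092). The groups with and without LPS did not overlap under either shRNA, and the KD libraries with LPS held the lowest levels of the 12.

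For PNPLA2, the log2 fold change with LPS was 0.17 in scramble control (95% interval -0.12 to 0.46) and -0.27 in KD (95% interval -0.53 to -0.02, adjusted p = 0.19). For LIPE it was -0.04 in scramble control (95% interval -0.31 to 0.24) and -0.82 in KD, where the spread of the KD libraries left an interval of -1.61 to -0.02 and an adjusted p of 0.21. Without replicate 3 of KD without LPS, LIPE, LIPG and PNPLA2 also passed in KD, with adjusted p of 0.016, 0.012 and 0.036, and with both KD libraries numbered 3 left out LIPE and LIPG did, with 0.01 and 0.035. With no filter on low counts, LIPE, LIPG and CES1 passed in KD, with adjusted p of 0.0064, 0.03 and 0.049. MGLL had log2 fold changes of -0.20 and -0.16, and neither passed. At an unadjusted p under 0.05, 3 of the 10 genes passed in scramble control and 6 in KD, and DESeq2 called 3 in each.

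CES1 and LIPA had positive log2 fold changes with LPS that did not pass. The log2 fold change of CES1 was 0.40 in scramble control (95% interval -0.03 to 0.83, adjusted p = 0.22) and 0.32 in KD (adjusted p = 0.071). The scramble libraries of CES1 included 1 high value, and without it the log2 fold change was 0.76 with an adjusted p of 0.00045. With the pseudogene counts added, CES1 passed in KD (0.46, adjusted p = 0.0038). LIPA had log2 fold changes of 0.23 (adjusted p = 0.082, and 0.031 by DESeq2) and 0.13 (adjusted p = 0.34). LIPG had 0.02 in scramble control and -0.88 in KD (adjusted p = 0.068), and PNPLA3 had 0.17 and -0.85.

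The interaction, which asks whether the effect of KD differed with LPS, passed for 0 of the 10 genes, while 1.28% of all genes passed. At an unadjusted p under 0.05 it was met by 2 of the 10, PNPLA2 and LIPG, and DESeq2 called 0. The interaction on the log2 scale was -0.43 for PNPLA2 (95% interval -0.85 to -0.01, adjusted p = 0.44), -0.88 for LIPG (95% interval -1.74 to -0.02, adjusted p = 0.43) and -0.76 for LIPE (95% interval -1.75 to 0.23). For G0S2 it was 0.08 (95% interval -0.32 to 0.48), for ABHD5 0.08 (-0.23 to 0.38), for CES1 -0.07 (-0.57 to 0.44) and for LIPA -0.08 (-0.31 to 0.14).

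The mRNA of both regulators can be set against that of PNPLA2, per length, as a description chosen after their values were seen. The ratio of G0S2 to PNPLA2 was 4.59 ± 1.07 in scramble control and 4.66 ± 0.342 in linc-ADAIN KD (SD, n = 3 each), and 11.8 ± 2.24 and 17.1 ± 1.34 with LPS. The libraries of the groups without LPS overlapped, and all LPS libraries lay above them. The ratio of ABHD5 to PNPLA2 was 0.175 ± 0.0321 in scramble control and 0.0972 ± 0.0273 with LPS, and 0.265 ± 0.0296 in KD and 0.203 ± 0.0379 in KD with LPS. In KD without LPS it was above every scramble library, and under LPS it was lower than without LPS for each shRNA. The size of both ratios rests on the transcript lengths, and with the median length of each gene's transcripts, an alternative chosen after seeing the data, the ratio in scramble control was 1.84 for G0S2 and 0.263 for ABHD5, while the order of the libraries stays as it is.

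**Figure D3:**
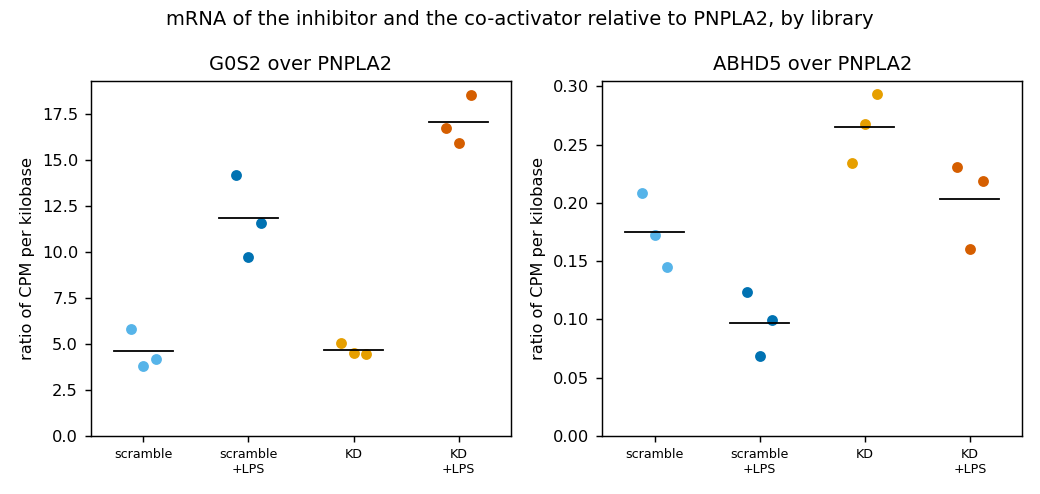
Ratio of the level per kilobase of G0S2 (left) and ABHD5 (right) to that of PNPLA2 in each library (points; lines, means of 3) on linear axes from 0. The 6 LPS libraries have the 6 highest G0S2 ratios, and the 3 scramble libraries with LPS have the lowest ABHD5 ratios.

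The 10 genes differed in how they followed the adipocyte marker sum across libraries. LIPE had its lowest level in the library with the lowest marker sum of each KD group, and its Pearson r with PNPLA2 over the 12 libraries, in log2 CPM, was 0.926. CES1 was at 31.7 to 37.7 CPM in the KD libraries, whose marker sums spanned 672 to 1989.9 CPM, and thus did not fall with the sum inside that group. CES1 had an r of 0.945 with PNPLA2, above that of LIPE, and 0.789 with LIPE. LIPA had 0.892 with PNPLA2 and 0.965 with CES1, whereas MGLL had -0.147 with PNPLA2 and -0.242 with LIPE. These correlations describe libraries that share groups and depth and carry no test.

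**Figure D4:**
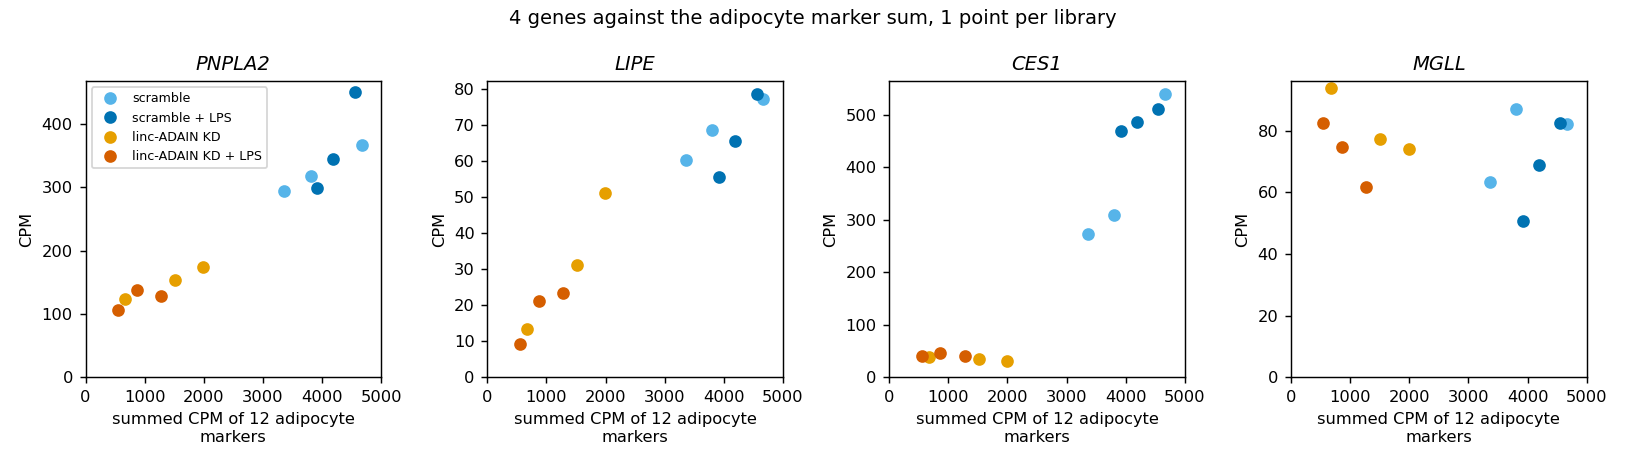
CPM of 4 of the genes against the summed CPM of 12 adipocyte markers, 1 point per library, linear axes from 0, coloured by group. LIPE and PNPLA2 are low where the marker sum is low, CES1 forms a flat KD group near the bottom, and MGLL covers the same range in all groups.

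The genes whose log2 CPM was most like that of each lipase over the 12 libraries were taken from those that averaged 50 counts or more per library. They were APOE (r = 0.993), IL17RC (0.989) and ALDH1L1 (0.989) for PNPLA2, GPD1, ADIRF and CIDEC (0.986 each) for LIPE, and CHRDL1 (0.994), EPHX1 (0.993) and CRTAP (0.992) for CES1. For ABHD5 they were RPF2 (0.986), UTP20 (0.978) and DNAJC2 (0.977), and for G0S2 PDZRN3 (0.988), NFIL3 (0.977) and PTGES (0.973). RHOQ, JAK1 (0.986 each) and CLDN11 (0.985) were most like LIPA, EPOR (0.876), DENND4B (0.873) and PTCD1 (0.842) most like MGLL, and OTULIN (0.911), WDR89 (0.879) and SERPINB1 (0.87) most like LIPG.

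The genes that govern lipolysis around these enzymes were counted from related lists. The shares to read these counts against are those of all genes tested, of which 12.1% rose and 15.1% fell with KD without LPS and 12.7% and 14.2% with LPS. Among lipolytic signalling genes in KD without LPS, 3 rose and 9 fell of 33 tested (median log2 fold change -0.15). The cAMP phosphodiesterases PDE4B and PDE4D rose, with log2 fold changes of 3.10 (adjusted p = 7.2e-08) and 2.17 (adjusted p = 0.00014). PDE4B had 3.52 ± 0.497 CPM with scramble shRNA and 30.1 ± 2.02 CPM under KD (SD, n = 3). The largest falls were of PTGER3, an inhibitory prostaglandin receptor, at -3.75 (adjusted p = 2.2e-07), and of NPR1, the natriuretic peptide receptor, at -2.42 (adjusted p = 2.6e-05). The list therefore changed in genes that raise and in genes that restrain cAMP or cGMP signalling. With LPS, 5 rose and 13 fell of 33 tested under KD (median -0.15), led by PDE4B at 4.03, IRS2, an adaptor of insulin signalling, at 1.91, PTGER3 at -4.80 and ADRA2A at -2.95.

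The interaction passed for 3 lipolytic signalling genes and for 0 genes of the other 6 lists (by edgeR and, except for transcription factors with 4, by DESeq2; at an unadjusted p under 0.05 it was met by 0 to 8 genes of these lists). Over all genes tested, 1.28% passed. Of the 3 signalling genes, PDE4B and GNAI1 were named after their values were seen. ADRA2A, the antilipolytic alpha2A adrenergic receptor, had 738, 561 and 373 counts in the scramble libraries, 421, 253 and 423 with LPS, 195, 253 and 167 in KD and 41, 80 and 23 in KD with LPS. Its interaction was -1.76 (adjusted p = 0.02), with LPS changes of -0.16 in scramble control and -1.95 in KD. GNAI1, an inhibitory G protein subunit, had an interaction of 0.87 (adjusted p = 0.0024), and PDE4B one of 0.94 (adjusted p = 0.03). The call for ADRA2A was lost without scramble replicate 2, KD replicate 1 or replicate 3 of KD with LPS (adjusted p of 0.063, 0.055 and 0.051), and that for PDE4B without any of 6 single libraries, with adjusted p up to 0.095.

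Droplet coat genes control access of the lipases to the triglyceride. In KD without LPS, 1 rose and 7 fell of 16 tested (median -0.87), with PLIN4 at -1.61 (adjusted p = 0.00038), CIDEC at -1.43 (adjusted p = 0.0046), PLIN2 at -1.24 (adjusted p = 1.4e-06) and PLIN1, the perilipin that holds ABHD5, at -1.14 (adjusted p = 0.014). PLIN1 lost its call without scramble replicate 3, with an adjusted p of 0.073. With LPS, 1 rose and 8 fell of 16 tested under KD (median -0.79), with PLIN4 at -2.45 and CIDEC at -2.11.

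For fatty acid and glycerol handling, 2 rose and 10 fell of 16 tested in KD without LPS (median -0.48). The rises were of the aquaglyceroporin AQP9, at 3.68 (adjusted p = 1.4e-05) from 16, 12 and 17 to 126, 257 and 126 counts, and of glycerol kinase, GK, at 2.14 (adjusted p = 5.7e-07). The largest falls were of ACSL5, an acyl-CoA synthetase, at -2.27 (adjusted p = 2.6e-07) and AQP3 at -1.97 (adjusted p = 2.9e-05). With LPS the counts were 2 rose and 9 fell of 16 tested (median -0.64), with AQP9 at 4.63, GK at 2.15, AQP3 at -2.64 and AQP7, the glycerol channel of adipocytes, at -2.38.

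Although LPL itself had few counts, genes that mature or restrain it were expressed, and 3 rose and 7 fell of 17 tested in KD without LPS (median -0.18). VLDLR and the heparan sulfate proteoglycan SDC1 rose, at 1.91 (adjusted p = 0.0055) and 1.36 (adjusted p = 0.0039), and APOE fell, at -1.60 (adjusted p = 1.2e-05). With LPS, 0 rose and 8 fell of 15 tested under KD (median -0.60), with APOE at -2.00. ANGPTL4, an inhibitor of LPL, fell with LPS under both shRNAs, at -1.03 (adjusted p = 6.7e-05) and -1.20 (adjusted p = 9.6e-06). Its mean was also lower in KD than in scramble libraries, at 153 against 429 CPM without LPS and 66.0 against 209 CPM with LPS.

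Among other lipases and hydrolases, 2 rose and 3 fell of 22 tested in KD without LPS and 1 rose and 2 fell of 20 tested with LPS (medians -0.15 and -0.000322). Without LPS these counts are near the shares over all genes. NCEH1, a cholesteryl ester hydrolase, rose at 1.03 (adjusted p = 0.0029) and 1.12 (adjusted p = 0.00059), and AADAC, an esterase of the endoplasmic reticulum like CES1, fell from 290, 268 and 196 to 0, 10 and 2 counts without LPS and from 154, 66 and 174 to 7, 0 and 5 counts with LPS. Of the lysosomal genes, 7 rose and 3 fell of 17 tested without LPS and 8 rose and 3 fell of 17 tested with LPS (medians 0.17 and 0.07), whereas LIPA fell in both. TFEB, a regulator of lysosomal genes, fell without LPS at -1.39 (adjusted p = 0.031), a call lost without scramble replicate 2, KD replicate 1 or KD replicate 3 (adjusted p of 0.19, 0.073 and 0.088).

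Transcription factors known to act on lipase genes moved both ways in KD, where 4 rose and 7 fell of 22 tested without LPS (median -0.09) and 6 rose and 9 fell of 22 tested with LPS (median -0.30). KLF5 rose at 2.33 (adjusted p = 5e-04) and 3.40 (adjusted p = 2.1e-07), and SREBF1 fell at -1.23 (adjusted p = 2.8e-06) and -1.42 (adjusted p = 2.7e-06). The adipocyte nuclear receptor PPARG was lower in KD than in scramble libraries when both had LPS, at -1.59 (adjusted p = 5e-07). Every KD library without LPS (44.8, 38.2 and 24.2 CPM of PPARG) also lay below every scramble library without LPS (65.4, 61.6 and 68.8 CPM). NR1H3, the oxysterol receptor LXR alpha, fell at -1.08 (adjusted p = 3.9e-05) without LPS and -1.35 (adjusted p = 2.8e-06) with LPS. KLF5 was chosen by the study on these samples, so its direction is not independent evidence.

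The same lists were counted for LPS, which raised 5.9% and lowered 8.38% of all genes in scramble control and raised 5.32% and lowered 6.03% in KD. In scramble control, 3 rose and 1 fell of 33 tested (median 0.18) among lipolytic signalling genes, led by PDE4D at 1.63 (adjusted p = 0.0022), and 5 rose and 1 fell of 22 tested (median 0.12) among transcription factors, with KLF5 at 2.13, CEBPD at 1.42, STAT5A at 1.20 and KLF15 at 1.00. Among droplet coat genes 0 rose and 2 fell of 15 tested (median 0.00), among fatty acid and glycerol genes 2 rose and 2 fell of 16 tested (median 0.15), among genes of LPL control 2 rose and 1 fell of 17 tested (median 0.26), among other lipases 1 rose and 2 fell of 21 tested (median -0.13), and among lysosomal genes 2 rose and 1 fell of 17 tested (median 0.11). In KD, 7 rose and 3 fell of 32 tested (median -0.01) among lipolytic signalling genes, with PDE4B at 1.51, PRKG1, the cGMP-dependent kinase, at 1.12 and ADRA2A at -1.95. For the transcription factors in KD, 5 rose and 3 fell of 22 tested (median -0.01), led by KLF5 at 3.18, CEBPD at 1.98, STAT5A at 1.76 and PPARA at -1.34. With LPS in KD, AQP9 rose at 1.12 (adjusted p = 0.003) and MITF, a lysosomal regulator, at 1.02 (adjusted p = 0.00054), and SDC1 fell at -1.38 (adjusted p = 0.021) and DAGLA, a diacylglycerol lipase, at -1.05 (adjusted p = 0.01). Several of these calls were lost in single alternatives, with the largest adjusted p at 0.082 for SDC1, 0.1 for DAGLA, 0.089 for PRKG1 and 0.052 for PPARA. In the other lists the counts were 0 rose and 2 fell of 15 tested (median -0.18) for droplet coat genes, 3 rose and 2 fell of 16 tested (median -0.16) for fatty acid and glycerol genes, 1 rose and 3 fell of 14 tested (median -0.22) for LPL control, 1 rose and 2 fell of 22 tested (median 0.02) for other lipases and 2 rose and 1 fell of 17 tested (median 0.03) for lysosomal genes.

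**Figure D5:**
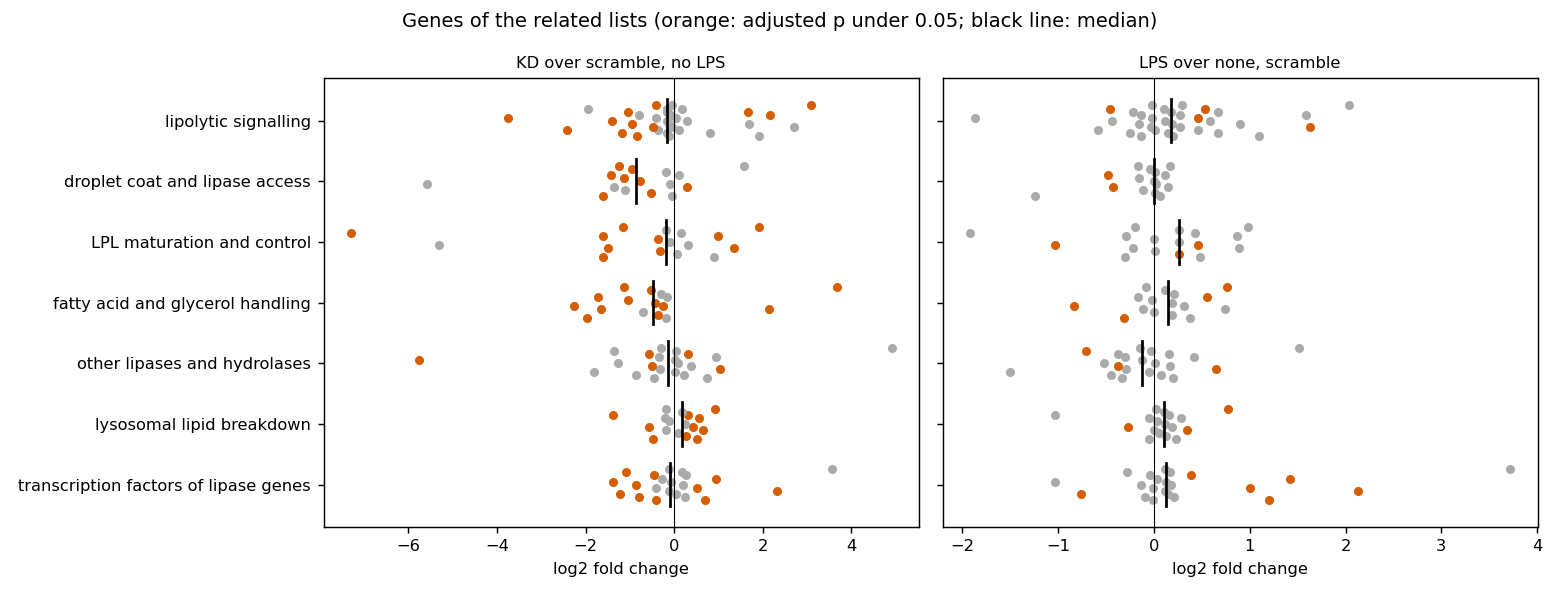
Log2 fold changes of all tested genes of 7 related lists (rows) with linc-ADAIN KD without LPS (left) and with LPS in scramble control (right); orange points passed an adjusted p of 0.05 and black lines are medians. The droplet coat list has the lowest KD median, -0.87, and the right panel has fewer orange points in every list, for example among transcription factors, with 6 against 11.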

How the data were processed

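RNA-seq was analysed in 12 libraries, 3 for each of 4 groups, grouped by the shRNA and LPS treatment in the labels. Per the submitters' processing notes and the paper's methods, reads were converted with bcl2fastq 2.19 and pseudoaligned to the human transcriptome (GRCh38) with kallisto 0.44.0, and the authors deposited estimated counts per gene name, not normalized for depth or length. Libraries were made with a stranded kit, and the strand setting of the counting is not given in the sources used here. PNPLA2, LIPE, ABHD5, MGLL, LIPA and G0S2 overlap genes on the opposite strand, and PNPLA3 and LIPE overlap genes on their own strand. Reads could be mixed where exons overlap, but whole gene spans were compared and exons were not checked. A row without a gene name (0.235% to 0.306% of counts) was left out.

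The estimated counts were rounded, genes with fewer than 10 counts in total across the libraries compared were removed, and the 4 comparisons, each on 6 libraries, and the interaction on all 12 were tested in R 4.3.3 with edgeR 4.0.16 (TMM, quasi-likelihood F test, Benjamini-Hochberg adjustment, threshold 0.05). The study used DESeq2 1.32.0, and DESeq2 1.42.0 was an alternative. The standard error is the log2 fold change divided by the square root of F. With 3 libraries against 3, the smallest p of an exact two-sided permutation test is 0.1. Steps were tested on simulated data.

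Depth was 28.4 to 53.8 M counts per library, which limits PNPLA3, LIPG and LPL. Positions and lengths come from GENCODE release 44 on GRCh38, in which 28647 of 28901 names had a gene. Library numbers are not known to pair the samples (correlations of deviations from -0.153 to 0.268), so they were used as a block only as an alternative. The 10 genes and the lists were chosen with earlier results of these data known. In each list, genes that passed at 2-fold are named or, if over 4, the 2 largest rises and falls, and for each gene the 3 most correlated genes; 1 gene that this rule names is not reported here. Alternatives were other scalings and filters, a fit of all libraries, median transcript lengths, each library left out and, added after seeing the data, both KD libraries numbered 3 left out, CES1 summed with its pseudogenes, and median lengths for the ratios.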

Additional observations from a re-analysis of the deposited data

Results flagged for a closer look

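The effect of linc-ADAIN KD differed between cells with and without LPS, by edgeR's interaction test over the 12 libraries, for 3 of 33 lipolytic signalling genes tested. Of all genes tested, 1.28% passed. The calls for ADRA2A and PDE4B were lost when certain single libraries were left out, with adjusted p up to 0.063 and 0.095. The interaction was -1.76 on the log2 scale for ADRA2A (standard error 0.359, adjusted p = 0.02), 0.87 for GNAI1 (0.135, adjusted p = 0.0024) and 0.94 for PDE4B (0.205, adjusted p = 0.03). GNAI1 had 37.7 ± 2.03 CPM with scramble shRNA and 27.3 ± 0.953 CPM when LPS was added, against 42.9 ± 4.63 and 56.3 ± 4.87 CPM in KD (SD, n = 3 each).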

How the results depend on the processing

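The 6 genes that linc-ADAIN KD lowered kept their direction in every alternative run. Of 50 log2 fold changes of the 10 genes, 27 kept direction and side of the threshold throughout, 13 turned sign at least once, 8 passed and 2 failed in at least 1 alternative. Those that failed were LIPE without LPS and ABHD5 with LPS. The count of changed genes among the 10 with LPS in scramble control, 2, became 4 with the replicate number as a block, by which CES1 and LIPA passed (adjusted p of 0.0078 and 0.029), and ranged from 2 to 4 with 1 library left out. In KD, also 2, it became 5 with no filter on low counts, 5 with the block, by which LIPE, LIPG and PNPLA2 passed (3.6e-06, 0.015 and 0.041), 4 without both KD libraries numbered 3, and ranged from 2 to 5 with 1 library left out. The numbers are not known to pair the samples, although with LPS in scramble control every library correlated best with its own number (0.268, 0.118 and 0.0858). Over all genes, leaving out 1 library gave 1187 to 2106 changed genes for LPS in scramble control (2274 in all) and 92 to 243 for the interaction (219 in all), the smallest without scramble replicate 2. DESeq2 gave 475 interactions, no filter 431, and leaving out both libraries numbered 3 gave 139, and 1179 genes for LPS in KD (1835 in all). Sign turned, always short of the threshold, for PNPLA3 with KD without LPS with library size only (0.048) and without KD replicate 2 (0.0036), for LIPG with LPS in scramble control (-0.020 with library size only, -0.0048 with the block), for LPL with the block (-0.52 with KD, 2.23 with LPS in KD), and in the interaction for G0S2 (-0.018) and CES1 (0.035) without both libraries numbered 3, and CES1 summed with its pseudogenes (0.038). With 1 library left out, the log2 fold changes that turned ran for KD without LPS from -0.11 to 0.0036 for PNPLA3, -0.047 to 0.17 for MGLL, -6.76 to 2.10 for LPL, -0.15 to 0.39 for LIPG, for KD with LPS from -0.040 to 0.30 for MGLL, for LPS in scramble control from -0.0068 to 0.29 for PNPLA2, -0.17 to 0.075 for LIPE, -0.12 to 0.23 for LIPG, for LPS in KD from -1.53 to 7.10 for LPL, for the interaction from -0.12 to 0.22 for MGLL, -0.077 to 0.15 for ABHD5, -0.086 to 0.27 for G0S2, -0.43 to 0.11 for CES1. The cause was not tested. Of 61 fold changes of named list genes, 9 did not keep their call throughout. Lengths from the median transcript moved 36 of 40 levels per kilobase, and the order changed for CES1 against ABHD5 and MGLL and for PNPLA3 against LPL in the KD groups. Depth limits LPL, PNPLA3 and LIPG.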
